A study of Mus musculus with 11 samples.

Results

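The horizontal basal cell genes examined here were 8 genes, Krt5, Krt14, Krt15, Trp63, Itga6, Itgb4, Col17a1 and Icam1, taken by symbol from 24421 entries in the count table of the main olfactory epithelium (MOE). They are named as markers of horizontal basal cells, and the rule that lists them uses no measured value. All 8 were among the 16574 genes with enough reads to be tested. RNA-seq had been performed on the whole MOE of C57BL/6 mice labelled P1-P2. The mice differed in the olfactory trace amine-associated receptor (Taar) genes. Wild type mice (n = 3) kept the whole run of genes between Taar2 and Taar9, TAAR cluster +/- mice (heterozygous, n = 4) lacked 1 copy of it, and TAAR cluster -/- mice (homozygous, n = 4) lacked both. The reporting part of the paper gives an older age and a background mixed with 129 for these knockout mice, and the conflict with the labels could not be resolved. No other allele or treatment is named in the labels, and the deletion is in the germline and not limited to 1 cell type. Whether replicates came from separate animals is not given in the labels, so p-values measure the spread between these libraries.

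Horizontal basal cells are flat cells that lie on the basal lamina of the olfactory epithelium. They are a mostly quiescent reserve of stem cells that becomes active after injury and can then replace sensory neurons, sustentacular cells and gland cells. The layer forms around birth. The transcription factor p63 (Trp63) is needed to form it and holds its cells at rest. Keratin 5 and keratin 14 pair into the intermediate filaments of basal epithelial cells, and keratin 15 is a further type I keratin of such cells. Integrin α6 (Itga6) and integrin β4 (Itgb4) form the laminin receptor of hemidesmosomes, the plaques that fasten basal cells to the lamina, and Col17a1 encodes the transmembrane collagen of the same plaques. Icam1 encodes an adhesion molecule that is used to sort horizontal basal cells and is also made by endothelial and immune cells. Basal cells of respiratory and squamous epithelium and of glands express many of the same genes. In whole tissue, fewer cells of a type and less RNA per cell cannot be told apart.

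Depth was 9239866 to 14632525 counts per library. Counts of the deleted Taar genes summed to 87 to 119 in wild type, 31 to 96 in heterozygous and 1 to 3 in homozygous libraries. They set the homozygous libraries apart from the others, but heterozygous replicates 1 and 2, with 96 and 89 counts, lay above wild type replicate 2 with 87, so these counts do not tell the heterozygous from the wild type labels. On the first principal component of all tested genes, which held 41.6% of the variance, the libraries fell into 2 sets, each with all 3 genotypes. The 6 libraries of set 1 were homozygous 1 and 2, heterozygous 3 and 4 and wild type 1 and 2, and the 5 of set 2 were homozygous 3 and 4, heterozygous 1 and 2 and wild type 3. The sets were derived from the data and correspond to no label. In homozygous replicate 2, the ribosomal RNA precursor Rn45s took 25.8% of counts, against 0.0848% to 0.786% in the other libraries. Summed CPM of 6 skeletal muscle genes ranged from 4.26 to 1382, and heterozygous replicate 4 had the highest value.

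The genes lie on 6 chromosomes (mm10). Krt5 spans chr15:101707070-101712898 on the minus strand. Krt14 (chr11:100203162-100207548) and Krt15 (chr11:100131758-100135928) lie in the type I keratin cluster, both on the minus strand. Itgb4 is on the same chromosome (chr11:115974709-116008412, plus strand). Trp63 lies at chr16:25683763-25892102 (plus strand), Itga6 at chr2:71745616-71858416 (plus strand), Col17a1 at chr19:47646344-47692094 (minus strand) and Icam1 at chr9:21015985-21028817 (plus strand). All 8 are annotated as protein coding, with 7 (Icam1) to 54 (Col17a1) separate exon blocks.

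Keratins are close copies of one another, and counts of single keratins depend on how reads that match several genes were treated, which is not given in the sources used here. Of all 50-base windows of the transcript, 14.4% of those of Krt14 were also found in another gene, most often in Krt16. The share was 8.52% for Krt5, most often with Krt6a, and 0.666% for Krt15. For Itga6 it was 6.5%, all with the predicted gene Gm29397. Trp63, Icam1, Itgb4 and Col17a1 shared 0 windows. The longest stretch that Krt14 shares with Krt16, a keratin of injured epithelium, is shown because reads from within it cannot be assigned by sequence. It lies in coding exons, at bases 399 to 532 of the Krt14 transcript (GENCODE M21), and every base in it is shared, so none is in capitals.
Krt14 and Krt16: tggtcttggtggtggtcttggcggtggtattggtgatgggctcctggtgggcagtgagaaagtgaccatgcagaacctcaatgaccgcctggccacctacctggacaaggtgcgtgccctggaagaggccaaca
Both partner genes, Krt6a and Krt16, had low levels in these libraries. Krt6a had 0.0802 to 3.27 CPM and Krt16 0 to 0.327 CPM (CPM, read counts scaled to a common library total), against 26.5 to 96.8 CPM for Krt5 and 9.53 to 45.2 CPM for Krt14. Krt14 also shares a coding stretch of 71 bases with Krt17, a keratin of stressed and glandular epithelium, which had 10.7 to 37.1 CPM.

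Promoters from RefSeq (GRCm38.p6) were given for 4 of the 8 genes. The 250 bases before the start of Krt5 (chr15:101712906-101713155, minus strand) and Icam1 (chr9:21015690-21015939, plus strand) are shown because over the 11 libraries Krt5 moved with most of the other genes and Icam1 did not, as described below.
Krt5: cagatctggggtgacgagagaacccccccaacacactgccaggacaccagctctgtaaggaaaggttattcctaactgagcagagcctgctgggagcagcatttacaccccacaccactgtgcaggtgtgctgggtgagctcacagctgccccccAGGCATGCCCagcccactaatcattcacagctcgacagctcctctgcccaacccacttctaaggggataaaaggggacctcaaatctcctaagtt
Icam1: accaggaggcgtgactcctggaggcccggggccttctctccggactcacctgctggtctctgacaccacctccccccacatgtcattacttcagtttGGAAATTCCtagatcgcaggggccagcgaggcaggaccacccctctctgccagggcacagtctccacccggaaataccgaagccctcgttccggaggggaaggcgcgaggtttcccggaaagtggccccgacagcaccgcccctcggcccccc
Capitals mark matches to letters that were chosen with these promoters in view. In Krt5 they are a p53 family half-site, the kind of sequence that p63 can bind, at bases -95 to -86. Such a half-site occurred on either strand in 7.13% of 32851 promoters, and in 1.63% with the core CATG that Krt5 has. In Icam1 they are GGAAATTCC, a sequence of the NF-κB type, at bases -153 to -145, found on either strand in 0.286% of promoters. The matches are a description of the letters only. The RefSeq start of Krt14 lay 1518 bases from its GENCODE start, and its promoter, which held no match to either sequence, is not shown. The promoter of Col17a1, the gene that moved most closely with the other 7, is not shown either. It held TATAAA at bases -140 to -135 and -91 to -86, letters found on either strand in 12.4% of promoters, and neither the half-site nor GGAAATTCC. A link between these sequences and the levels was not tested.

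Per kb of exon, Krt15 and Krt5 had the highest levels of the 8 genes and Trp63 the lowest. Mean level per length was 24.3 ± 15.5 CPM per kb (SD, n = 11) for Krt15, 23.8 ± 10.6 for Krt5 and 13.5 ± 5.77 for Krt14. It was 10.3 ± 2.52 CPM per kb for Itga6, 10.01 ± 2.81 for Itgb4, 5.69 ± 2.26 for Col17a1, 4.12 ± 1.30 for Icam1 and 2.19 ± 0.584 for Trp63. Krt15 lay above Krt5 in 5 of 11 libraries, so these neighbours had no stable order. Krt5 lay above Krt14, Itgb4 above Col17a1 and Icam1 above Trp63 in 11 of 11 libraries. The length used was that of all exons of a gene combined, and part of the order rests on it. For Itga6 that length is 9025 bases, against 4310 bases of its longest coding transcript, and for Icam1 4360 against 2535 bases. Per kb of the longest coding transcript, an alternative added after seeing the data, Itga6 had 21.5 ± 5.28 CPM per kb and lay above Krt14 (14.0 ± 5.97) in 11 of 11 libraries, and Itgb4 had 11.3 ± 3.18. Icam1 (7.08 ± 2.24) then came before Col17a1 (6.12 ± 2.43) and lay above it in 7 of 11 libraries. Krt15, Krt5 and Trp63 kept their places at the ends of the order of means, but Krt5 lay above Itga6 in only 6 of 11 libraries.

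Krt5 had 81.0, 69.1 and 26.5 CPM in wild type replicates 1 to 3. In heterozygous replicates 1 to 4 it had 35.6, 35.9, 36.9 and 96.8 CPM, and in homozygous replicates 43.6, 72.1, 34.8 and 42.3 CPM. Both the lowest wild type and the highest heterozygous library stood far from the rest of their genotype, and the genotypes overlapped. Its filament partner Krt14 had 30.5, 28.8 and 9.53 CPM in wild type, 18.4, 16.6, 19.9 and 34.6 CPM in heterozygous and 23.8, 45.2, 17.4 and 17.0 CPM in homozygous libraries. The order of libraries was much like that of Krt5, with homozygous replicate 2 at the top. Krt15 had 76.0, 52.4 and 18.3 CPM in wild type, 24.3, 28.9, 24.6 and 99.96 CPM in heterozygous and 41.6, 64.8, 27.5 and 13.1 CPM in homozygous libraries. The highest library had 7.64 times the level of the lowest, the widest range of the 8 genes.

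Trp63 had 26.8, 24.9 and 16.0 CPM in wild type, 13.2, 15.4, 14.7 and 24.9 CPM in heterozygous and 18.2, 18.8, 15.04 and 14.1 CPM in homozygous libraries. Its range was the narrowest, 2.03-fold, and 3 of 4 heterozygous libraries and 2 of 4 homozygous libraries lay below every wild type library.

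The integrin α6 chain had the highest CPM of the 8 genes. Itga6 had 112.7, 114.5 and 76.0 CPM in wild type, 73.2, 66.2, 90.4 and 110.6 CPM in heterozygous and 110.4, 126.4, 79.2 and 61.1 CPM in homozygous libraries. Its partner Itgb4 had 97.1, 72.8 and 50.5 CPM in wild type, 73.5, 53.4, 37.0 and 102.4 CPM in heterozygous and 64.1, 85.7, 63.4 and 72.6 CPM in homozygous libraries. Both overlapped between genotypes, and the lowest library was homozygous replicate 4 for Itga6 but heterozygous replicate 3 for Itgb4. Col17a1 had 55.1, 41.8 and 22.4 CPM in wild type, 24.2, 23.4, 21.6 and 52.7 CPM in heterozygous and 35.2, 51.4, 23.7 and 25.0 CPM in homozygous libraries. Heterozygous replicate 4 stood above the other heterozygous libraries by far, as for Krt5 and Krt15.

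Icam1 followed another order. It had 16.3, 16.4 and 10.3 CPM in wild type, 30.1, 14.8, 14.3 and 16.4 CPM in heterozygous and 25.7, 20.8, 14.2 and 18.1 CPM in homozygous libraries. Its highest library, heterozygous replicate 1, was among the lower ones for Krt5, Krt15 and Trp63, and 3 of 4 homozygous libraries lay above every wild type library.

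**Figure D1:**
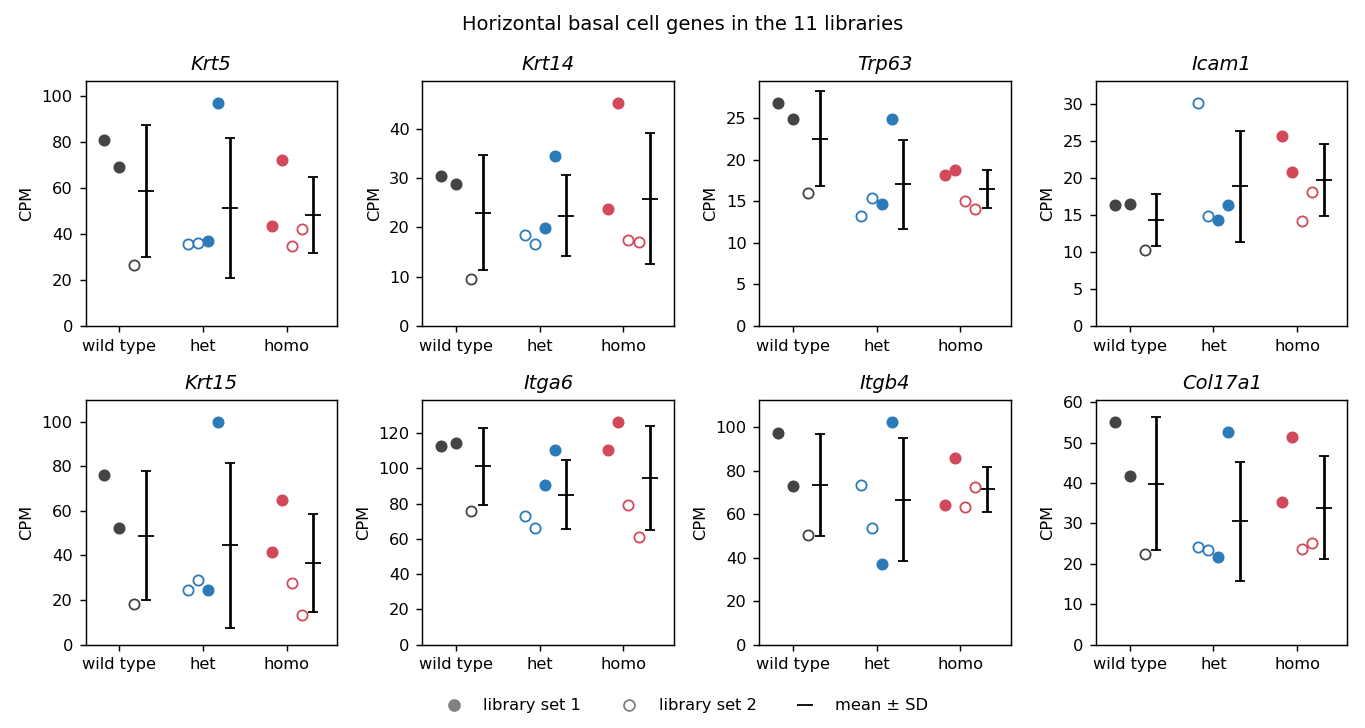
Level (CPM) of each horizontal basal cell gene in the 11 libraries by genotype, with 1 point per library, filled for library set 1 and open for set 2, and a bar for the mean ± SD of each genotype. The genotypes overlap for all 8 genes, and heterozygous replicate 4 stands alone among heterozygous libraries for Krt5 (96.8 CPM), Krt15 (99.96 CPM) and Col17a1 (52.7 CPM).

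To examine whether the deletion went with a change of these genes, the genotypes were compared with edgeR's quasi-likelihood test. None of the 8 genes passed an adjusted or an unadjusted p of 0.05 in any of the 3 comparisons, and the genotype groups overlapped for each gene in each comparison. The share of all tested genes whose groups overlapped was not computed. The sum of the 8 genes was 382 ± 137 CPM in wild type (SD, n = 3), 336 ± 136 CPM in heterozygous (n = 4) and 347 ± 102 CPM in homozygous libraries (n = 4).

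In homozygous against wild type, 500 of 16574 tested genes (3.02%) had an unadjusted p under 0.05, of which 200 (1.21%) were lower and 300 (1.81%) higher, and 0 (0%) passed the adjusted p. Against this background 0 of 8 members passed in either direction. The largest differences were those of Trp63, at -0.45 on the log2 scale (unadjusted p = 0.0975, SE 0.249, with a 95% interval from -0.99 to 0.10), and Icam1, with 0.46 (SE 0.304, -0.205 to 1.12, unadjusted p = 0.158) in the edgeR fit. Krt15 had -0.41 with an interval of -1.79 to 0.96, which spans 0.289-fold to 1.94-fold, and Krt5 had -0.29 (-1.24 to 0.66). The other log2 fold changes were -0.24 for Col17a1, -0.10 for Itga6, -0.04 for Itgb4 and 0.17 for Krt14, and the adjusted p in edgeR was 0.996 or more for all 8. The lower ends of the intervals ran from 0.289-fold (Krt15) to 0.867-fold (Icam1) and the upper ends from 1.07-fold (Trp63) to 2.19-fold (Krt14). Of the members, 6 of 8 were lower, with a median of -0.17, while 47.2% of all tested genes were lower, with a median of 0.02.

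In heterozygous against wild type, 372 genes (2.24%) had an unadjusted p under 0.05, 82 (0.495%) lower and 290 (1.75%) higher, and 0 (0%) passed the adjusted p. Of the members 0 of 8 passed. Trp63 was at -0.41 (SE 0.249, unadjusted p = 0.13 in edgeR), Col17a1 at -0.39 (SE 0.388), Itga6 at -0.25 (SE 0.26) and Icam1 at 0.40 (SE 0.304, unadjusted p = 0.209 in edgeR) on the log2 scale. Krt5 was at -0.20, Itgb4 at -0.14, Krt15 at -0.14 and Krt14 at -0.04. Here 7 of 8 members were lower (median -0.17), against 49.6% of all tested genes (median 0.00185). The comparisons with wild type share the 3 wild type libraries. Icam1 was at 0.08 in heterozygous against wild type once heterozygous replicate 1, its highest library, was left out. Without heterozygous replicate 4, Trp63 was at -0.64 (unadjusted p = 0.0127) and Col17a1 at -0.78 (unadjusted p = 0.0427) in edgeR, and without wild type replicate 3 Trp63 was at -0.60 (unadjusted p = 0.0346). Dropping wild type replicate 1 instead gave -0.26 for Trp63 and -0.08 for Col17a1. In homozygous against wild type, Trp63 was at -0.47 (unadjusted p = 0.038) in edgeR without heterozygous replicate 4 and -0.645 (unadjusted p = 0.0254) without wild type replicate 3. It was at -0.31 without wild type replicate 1 and -0.38 without homozygous replicate 4. None of these passed the adjusted p.

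In homozygous against heterozygous, 93 genes (0.561%) had an unadjusted p under 0.05, 40 (0.241%) lower and 53 (0.32%) higher, and 0 (0%) passed the adjusted p. Of the members 0 of 8 passed, and the log2 fold changes ran from -0.27 (Krt15, SE 0.588) to 0.21 (Krt14, SE 0.407). Over the 3 genotypes together 240 genes (1.45%) had an unadjusted p under 0.05 and 0 (0%) passed the adjusted p. The lowest joint unadjusted p of a member was 0.186, for Trp63 in edgeR. DESeq2 called 8, 3 and 2 genes at an adjusted p of 0.05 in the comparisons as ordered here, and 0 of the members were among them.

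**Figure D2:**
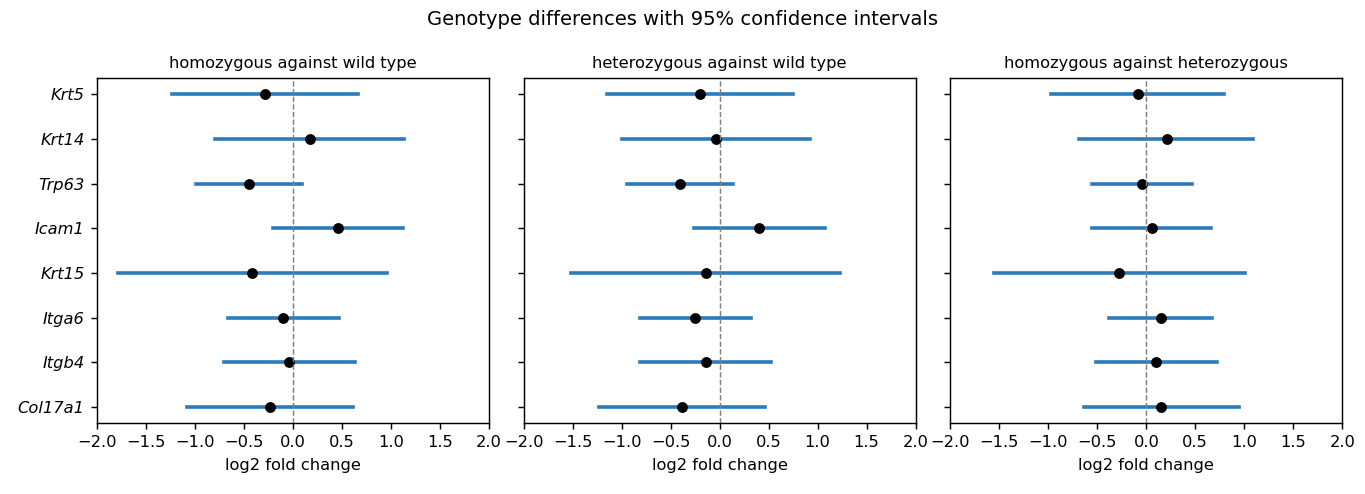
Log2 fold change of each horizontal basal cell gene in the 3 genotype comparisons (points) with its 95% confidence interval (bars) from the edgeR fit over 11 libraries. All intervals include 0, and that of Krt15 is the widest, from -1.79 to 0.96 in homozygous against wild type.

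Within library sets the differences between genotypes were not the same. In homozygous against wild type, the difference of mean log2 CPM for Krt5 was -0.415 within set 1 and 0.53 within set 2, where wild type replicate 3 was the only wild type library. For Krt14 it was 0.15 and 0.84, for Itgb4 -0.18 and 0.43, for Krt15 -0.28 and 0.05, for Col17a1 -0.175 and 0.12 and for Itga6 0.06 and -0.13. Trp63 was at -0.48 within set 1 and -0.13 within set 2. Icam1 was at 0.50 and 0.63. In heterozygous against wild type Icam1 was at -0.10 within set 1 and 1.03 within set 2. These within-set values rest on 1 to 2 libraries a genotype and carry no test. With library set as a term in the edgeR fit, Trp63 was at -0.35 (unadjusted p = 0.0672) and Icam1 at 0.48 (unadjusted p = 0.125) in homozygous against wild type. In the same fit Krt14 was at 0.39, above its value without the term, while Krt5 (-0.04), Krt15 (-0.14), Col17a1 (-0.08), Itga6 (-0.02) and Itgb4 (0.03) lay nearer to 0 than without it. In heterozygous against wild type the fit with library set gave -0.31 for Trp63, 0.46 for Icam1, 0.24 for Krt14, -0.205 for Col17a1, 0.165 for Krt15, -0.14 for Itga6, -0.07 for Itgb4 and 0.00466 for Krt5.

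The SD of log2 CPM over the 11 libraries was 0.91 for Krt15, above that of 97.1% of tested genes, 0.62 for Krt14 (89.0%), 0.61 for Krt5 (88.6%) and 0.55 for Col17a1 (84.6%). It was 0.43 for Itgb4 (71.9%), 0.42 for Icam1 (71.3%), 0.36 for Itga6 (61.9%) and 0.36 for Trp63 (61.3%), against a median of 0.30 over all tested genes. For Krt14 and Itga6 all 6 libraries of set 1 lay above all 5 of set 2. For Krt5, Trp63, Krt15 and Col17a1 this held for 5 of 6, for Itgb4 for 3 and for Icam1 for 0. The sets were drawn from the values of all tested genes, members included, so part of this split is built in. The share of all tested genes that split in the same way was not computed. The sum of the 8 genes ranged from 229 CPM in wild type replicate 3 to 538 CPM in heterozygous replicate 4, with means of 427 ± 103 CPM in set 1 and 263 ± 23.5 CPM in set 2.

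Over all 11 libraries, most pairs of the 7 genes other than Icam1 moved together, and no pair with Icam1 passed the test. Within library set 1 the pairs that passed were those among Krt5, Krt15, Itgb4 and Col17a1, and within set 2 the 7 genes did not move as one. Pearson's r of log2 CPM was computed for the 28 pairs, with a permutation test (100000 permutations) and Benjamini-Hochberg adjustment over the 28. Of the 21 pairs without Icam1, 19 passed an adjusted p of 0.05, with r from 0.45 to 0.95 over the 21 (median 0.84). The permutations treat the libraries as exchangeable although they fall into 2 sets, so a difference between the sets alone can let a pair pass. The share of pairs of all tested genes that would pass was not computed. Of the 7 pairs with Icam1, 0 passed, with r from -0.09 to 0.42. By Spearman's rho 18 of the 28 pairs passed.

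The highest value was that of Krt5 and Col17a1, with r = 0.95 (permutation p = 1e-05, the smallest the permutations can give, adjusted p = 0.000280) and rho = 0.87. The filament partners Krt5 and Krt14 had r = 0.90 (permutation p = 0.000180, adjusted p = 0.00126) and rho = 0.87 (permutation p = 0.000830, adjusted p = 0.00532), and r = 0.93 without the 2 libraries farthest from the median of Krt5. The integrin partners Itga6 and Itgb4 had r = 0.45 (permutation p = 0.171, adjusted p = 0.228) and rho = 0.51 (permutation p = 0.114, adjusted p = 0.145), the lowest r of the 21 pairs, and Trp63 and Itgb4 with r = 0.63 (permutation p = 0.0373, adjusted p = 0.0523) were the other pair that did not pass. Without the 2 libraries farthest from the median of the first gene, r ran from 0.31 to 0.95 over the 21 pairs.

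Since the libraries fall into 2 sets, the pairs were also computed within set 1. There r of the 21 pairs without Icam1 ran from 0.46 to 0.99 (median 0.84), and 17 of 21 exceeded 0.7. Of all 28 pairs, 6 passed an adjusted p of 0.05 in an exact permutation test over these 6 libraries, which can go no lower than p = 0.00139. They were Itgb4 with Col17a1 (r = 0.99), Itgb4 with Krt15 (0.98), Krt5 with Krt15 (0.97), Krt15 with Col17a1 (0.95), Krt5 with Itgb4 (0.93) and Krt5 with Col17a1 (0.92). Krt5 and Krt14 had r = 0.79 (exact permutation p = 0.0597, adjusted p = 0.119), and Itga6 and Itgb4 r = 0.80 (exact permutation p = 0.0903, adjusted p = 0.149). No pair with Krt14, Trp63 or Itga6 passed in set 1, where Krt14 and Trp63 had r = 0.46 and Icam1 and Itga6 r = 0.51. Within the 5 libraries of set 2, where no test was run, r of the 21 pairs ran from -0.92 to 0.93 (median -0.18), with 6 pairs over 0.7 and 11 under 0. There Krt5, Krt14, Itgb4 and Col17a1 had r from 0.73 to 0.93 with each other, and r of Trp63 with them ran from -0.92 to -0.62, while that of Icam1 with them ran from 0.58 to 0.83. The sum of the 8 genes spanned 1.28-fold in set 2 and 2.08-fold in set 1. Without heterozygous replicate 4, 16 of 28 pairs passed, and without homozygous replicate 2, 17 passed.

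**Figure D3:**
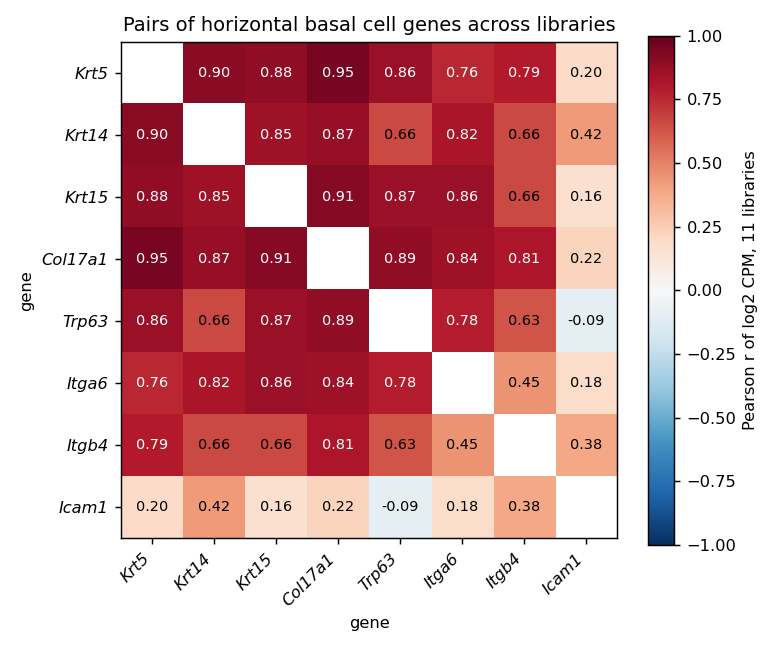
Pearson's r of log2 CPM over 11 libraries for each pair of horizontal basal cell genes, from -1 (blue) to 1 (red), with the value in each cell. The 7 genes other than Icam1 have r from 0.45 to 0.95 with each other, and the row of Icam1 holds values from -0.09 to 0.42. Within the 5 libraries of set 2 alone, which are not drawn separately, the median of those 21 pairs was -0.18.

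Each gene was set against the mean standardised level of the other 7. The r was 0.97 for Col17a1, 0.93 for Krt5, 0.90 for Krt15, 0.90 for Krt14, 0.80 for Itga6, 0.79 for Trp63, 0.75 for Itgb4 and 0.23 for Icam1. Partners of one structure kept their ratio to different degrees. Per length, Krt5 had 1.78 ± 0.335 times the level of Krt14 (SD, n = 11, range 1.28 to 2.24), a 1.75-fold range although each of the genes ranged over 3.65-fold or more. For Itgb4 over Itga6 the ratio had a 2.91-fold range, wider than that of either gene, and its size depended on the length used, with 1.001 ± 0.278 per kb of all exons (0.526 to 1.53) and 0.540 ± 0.15 per kb of the longest coding transcript (0.284 to 0.825). Krt15 had 1.72 ± 0.581 times the level of Krt14 (0.768 to 2.88), and Krt5 10.6 ± 2.52 times that of Trp63 (6.33 to 14.8), or 6.76 ± 1.61 times per kb of the longest coding transcript.

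Of a list of 9 other genes of the hemidesmosome and its laminin, Itgb1 (integrin β1), with 107 CPM per kb, and Cd151, a tetraspanin of the plaque with 30.6 CPM per kb, had the highest levels per length. Against the mean standardised level of the 8 members (the member score), r was 0.51 for Itgb1, 0.55 for Cd151, 0.73 for Lama3 and 0.71 for Lamb3, chains of the laminin that the plaques bind, and -0.70 for Lama5, a chain of laminin-511. The summed level of the 9 genes had r = 0.28 with the member score over 11 libraries, 0.06 within set 1 and 0.80 within set 2. None of the 9 had an unadjusted p under 0.05 in any comparison, and 6 of 9 were higher in homozygous than in wild type libraries (median 0.14).

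Among 10 epithelial genes associated with p63, Perp, a tetraspan protein of desmosomes (38.5 CPM per kb), and Jag2, a Notch ligand (23.0 CPM per kb), had the highest levels per length. Their r with the member score was 0.87 for Perp and -0.76 for Jag2, and Zfp750, an epidermal transcription factor, had 0.94. The summed level of the 10 had r = 0.19 with the member score (0.82 within set 1 and 0.48 within set 2). None of the 10 had an unadjusted p under 0.05 against wild type, and 6 of 10 were lower in homozygous libraries. Of 11 regulators of basal stem cells 0 passed. The 2 with the highest level per length were Sox2 (58.4 CPM per kb, r = 0.66) and Tnfrsf1a, a receptor for TNF (38.6 CPM per kb, r = 0.62), while Sox9 had r = 0.83, Hes1, a Notch target, 0.82, Notch1 0.545 and Rela 0.31. The other r were below 0, with -0.59 for Egfr, -0.51 for Pax6, -0.24 for Notch2, -0.11 for Bmi1 and -0.02 for Jag1. The summed level of the 11 had r = 0.72 (0.24 within set 1 and 0.76 within set 2).

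The summed level of 8 desmosome genes (449 to 778 CPM) moved with the member score, with r = 0.92 and rho = 0.87 over 11 libraries, r = 0.84 within set 1 and 0.82 within set 2, and 0 of the 7 tested passed in any comparison. Jup (plakoglobin, 41.3 CPM per kb) and Dsp (desmoplakin, 15.3 CPM per kb) had the highest levels per length. Of the injury keratins, 2 of 4 were tested, and the summed level of the 4 had r = 0.31 (-0.03 within set 1 and 0.79 within set 2). Krt17 (14.9 CPM per kb) had a log2 fold change of 0.70 in homozygous against wild type (unadjusted p = 0.0347, adjusted p = 0.996 in edgeR), and its r with the member score was 0.26. Krt6a, at 0.321 CPM per kb, was at 1.48 (unadjusted p = 0.21 in edgeR). The simple keratins of columnar cells, of which Krt18 (313 CPM per kb) and Krt8 (105 CPM per kb) had the highest levels, summed to 546 to 1062 CPM with r = 0.79 (0.74 within set 1 and 0.95 within set 2). Within that list Krt7 had r = 0.97 and Krt19 0.93.

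Other cell types of the tissue hold some of the same genes, and their markers were therefore read beside the members. Their part in the member levels was not tested. Of the markers of squamous epithelium, 7 of 10 had enough reads to be tested. The 10 genes summed to 31.8 to 67.3 CPM, and Ivl, Krt13 and Dsg1a had at most 0.214, 0.587 and 0.109 CPM. Krt16 and Dsg3, of other lists, had at most 0.327 and 0.421 CPM. The 2 highest per length were Sprr1a (11.7 CPM per kb) and Krt10 (5.82 CPM per kb). Sprr1a, a cornified envelope protein, reached 25.7 CPM, and Krt4 reached 11.5 CPM. The summed level had r = 0.25 with the member score (0.63 within set 1 and 0.65 within set 2), but single genes differed, with r = 0.87 for Krt4, 0.81 for Krtdap, 0.76 for Sprr1a, 0.23 for Krt1, -0.48 for Sbsn, -0.59 for Lor and -0.73 for Krt10. Respiratory epithelium markers had a summed level of 4799 to 7107 CPM (7 genes, led by the secreted proteins Bpifa1 and Reg3g with 2691 and 505 CPM per kb), and its r with the member score was -0.01 (0.19 within set 1 and 0.60 within set 2). That sum is mostly Bpifa1 (2983 to 5103 CPM, r = -0.37). Of the genes of ciliated cells in the list, Foxj1, their transcription factor, had r = 0.88 and Dnah5, a dynein of motile cilia, 0.80, while Ccdc39 had -0.32. Reg3g had r = 0.44 and Muc5b 0.30. Scgb1a1 in that list had at most 0.068 CPM. Muc5b, a mucin, was at 0.65 in heterozygous against wild type (unadjusted p = 0.0472 in edgeR).

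Endothelial markers (6 genes, 189 to 352 CPM, led by Cldn5 with 22.0 and Cdh5 with 20.1 CPM per kb) had r = 0.73 and rho = 0.58. Within set 1 the r was -0.25 and within set 2 it was 0.74, and the 6 libraries of set 1 (288 to 352 CPM) all lay above the 5 of set 2 (189 to 252 CPM). Immune markers (6 genes, 220 to 453 CPM, led by Lyz2 with 113 and C1qa with 36.4 CPM per kb) had r = 0.79 and rho = 0.78, with r = 0.64 within set 1 and 0.42 within set 2. Lyz2 was the largest part of that sum (83.3 to 289 CPM) and had r = 0.81. The r of the others was lower, from 0.13 for S100a8 to 0.54 for Ptprc. Cd68, a macrophage protein, was at 0.57 in heterozygous against wild type (unadjusted p = 0.0202 in edgeR). Schwann and ensheathing glia markers (6 genes, 267 to 427 CPM, led by S100b with 46.9 and Fabp7 with 36.2 CPM per kb) had r = 0.61 (0.58 within set 1 and -0.26 within set 2), while Sox10 in that list, a factor of glia and of glands, had r = 0.98.

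Globose basal and neuronal precursor markers (8 genes, 478 to 683 CPM) had r = 0.39, but -0.34 within set 1 and -0.60 within set 2. Neurod1 (22.5 CPM per kb) and Mki67 (18.8 CPM per kb), a proliferation marker, had the highest levels per length, and Mki67 was at -0.26 in heterozygous against wild type (unadjusted p = 0.0445 in edgeR). Sustentacular markers (6 genes, 2031 to 3889 CPM, led by Cbr2 with 1121 and Cyp2g1 with 386 CPM per kb) had r = -0.39 (0.37 within set 1 and -0.43 within set 2). Mature OSN markers (6 genes, 1049 to 1950 CPM, led by Omp with 234 and Gng13 with 132 CPM per kb) had r = 0.06 (-0.26 within set 1 and 0.95 within set 2). Immature OSN markers (5 genes, 990 to 1512 CPM, led by Tubb3 with 194 and Gap43 with 134 CPM per kb) had r = 0.15 (-0.70 within set 1 and 0.71 within set 2).

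Skeletal muscle markers (6 genes, led by Acta1 with 63.4 and Tnnt3 with 16.7 CPM per kb) had r = 0.24 (0.42 within set 1 and 0.12 within set 2). Acta1, Ckm, Myh3 and Ttn were higher in homozygous than in wild type libraries at an unadjusted p under 0.05 in edgeR, and all 6 in heterozygous against wild type. Their log2 fold changes ran from 2.83 to 4.25 and from 3.58 to 4.61. Summed levels were 4.26 to 48.3 CPM in wild type, 14.4 to 1382 CPM in heterozygous and 17.3 to 626 CPM in homozygous libraries, so the genotypes overlapped. The adjusted p was 0.996 or more for every list gene named with an unadjusted p under 0.05.

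The genes whose pattern over the 11 libraries was most like the member score were Slc34a2 (r = 0.99), Fut2 (0.98), Pkp1 (0.98), Sox10 (0.98), Hspa1a (0.98), Kcnn4 (0.97), Aldh3b2 (0.97), Cited4 (0.97), Krt7 (0.97) and Mansc1 (0.97). Slc34a2 is a phosphate transporter, Fut2 a fucosyltransferase, Pkp1 a desmosomal plaque protein, Kcnn4 a potassium channel and Krt7 a keratin of glandular and ductal epithelium. Slc34a2 ranged from 0.157 to 4.71 CPM and Kcnn4 from 9.55 to 74.7 CPM. Of the 16566 tested genes outside the members, 235 (1.42%) had r over 0.9 and 1923 (11.6%) over 0.7, while 1919 (11.6%) had r under -0.7 and the median was 0.01. Within set 1 the r of the 10 genes was 0.95 or more, and within set 2 it ran from 0.64 to 0.98. The libraries differ in depth and library set, and dissection is not given in the labels, so these correlations are given as a description.

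The genes most like Icam1 were chosen after its pattern was seen. They were led by Mboat7 (r = 0.96, rho = 0.95), Lrg1 (0.93 and 0.85), St14 (0.92 and 0.88), Bcl3 (0.91 and 0.85) and Litaf (0.91 and 0.57). The share of all tested genes with so high an r was not computed. Bcl3 is a co-factor of NF-κB, and Lrg1 a secreted glycoprotein of inflammation. Bcl3 ranged from 5.97 to 37.1 CPM and Lrg1 from 3.15 to 20.9 CPM.

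A list of 7 nasal gland markers was added after the values had been seen, and its summed level carries no test. Its summed level ran from 3752 CPM in homozygous replicate 4 to 30175 CPM in heterozygous replicate 4, and had r = 0.86 and rho = 0.90 with the member score. The r was 0.89 without the 2 libraries farthest from its median, 0.85 within set 1 and 0.43 within the 5 libraries of set 2. It was 6460 to 27583 CPM in wild type, 6074 to 30175 CPM in heterozygous and 3752 to 13762 CPM in homozygous libraries. Bpifb9b, a secreted BPI-fold protein, made up most of it (2979 to 25189 CPM). Aqp5, the water channel of gland cells, had 69.8 to 202 CPM and r = 0.96, and Ltf (lactoferrin) 94.9 to 623 CPM and r = 0.95, whereas Lpo (lactoperoxidase) had at most 2.61 CPM and r = -0.03. Obp1a, an odorant-binding protein, had 0 to 76.1 CPM and r = 0.80. It was at -5.53 on the log2 scale in homozygous against wild type (unadjusted p = 0.0214 in edgeR), a value picked out after it had been seen. A list of 5 myoepithelial and smooth muscle genes, added in the same way, had 443 to 831 CPM and r = 0.32 (-0.29 within set 1 and 0.06 within set 2). Mylk, a kinase of smooth muscle contraction, was at -0.36 in heterozygous against wild type (unadjusted p = 0.0174 in edgeR). Neither Obp1a nor Mylk passed the adjusted p. The part of gland tissue in the member levels was not tested.

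**Figure D4:**
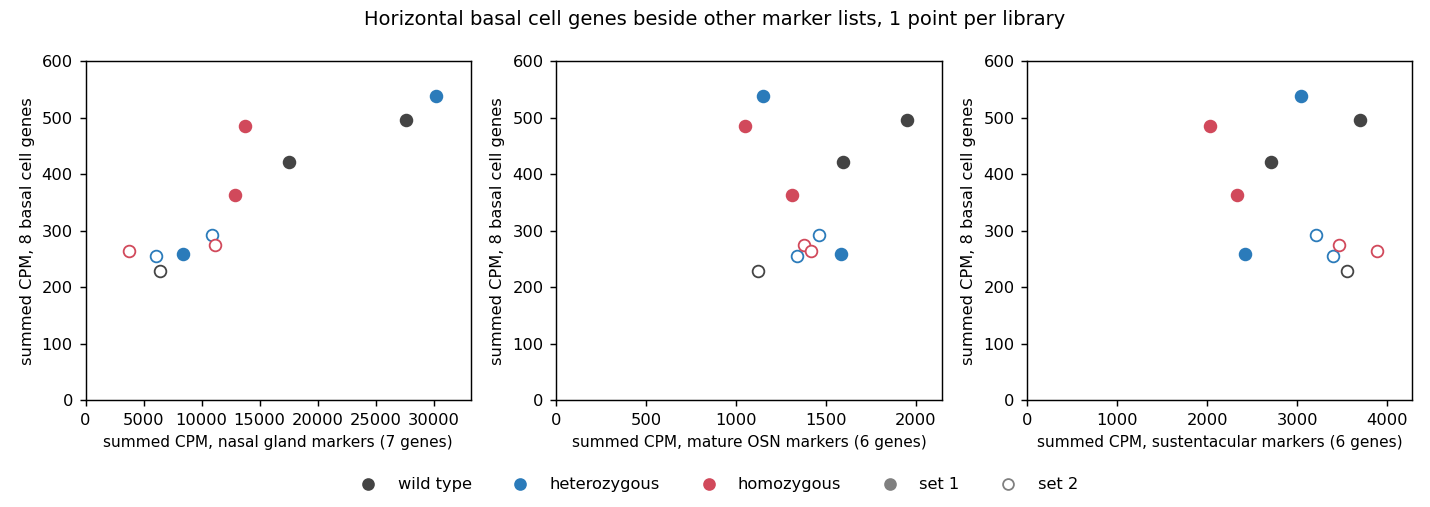
Summed level of the 8 horizontal basal cell genes (vertical axis, CPM) against the summed level of nasal gland, mature OSN and sustentacular markers (horizontal axes, CPM), with 1 point per library, coloured by genotype and filled for library set 1. The libraries highest in gland markers, heterozygous replicate 4 with 30175 CPM and wild type replicate 1 with 27583 CPM, are also the highest in the member sum, with 538 and 495 CPM, while mature OSN markers show no such order over all 11 libraries (r = 0.06 with the member score). Wild type replicate 1 is also the highest in mature OSN markers (1950 CPM). Within set 1, r was 0.85 for gland and -0.26 for mature OSN markers, and within set 2 it was 0.43 and 0.95.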

How the data were processed

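Total RNA of the whole MOE was sequenced as 11 polyA-selected directional libraries, 1 column each. Per the labels and the methods of the study, the authors trimmed reads with Trimmomatic (0.36), aligned them to mm10 with HISAT2 (2.1.0) and deposited raw read counts per gene from featureCounts (Subread 1.6.2). The annotation, strand setting and treatment of reads with several positions are not given in the sources used here. The authors also deposited a normalised copy of the counts, which was not used.

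Genotypes came from the labels. Counts were scaled by TMM, filtered with filterByExpr by genotype and fitted over the 3 genotypes in edgeR (4.0.16, R 4.3.3), with quasi-likelihood F-tests and Benjamini-Hochberg adjustment over 16574 genes. The fit was tested on simulated data. Log2 CPM used a prior count of 2. Levels per kb used the exon length of GENCODE M21, and promoters came from RefSeq (GRCm38.p6). Correlations used two-sided permutation tests. Alternatives were RLE scaling, no filter, DESeq2 (1.42.0), fits of 2 genotypes, replicate number or library set as a term, and leaving out each library.

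The members and lists were chosen with earlier results of these data known. Named genes were the 8 members, from each other list, save the 2 added after the values were seen, the 2 with the highest level per length and any with an unadjusted p under 0.05 against wild type, and the 10 genes most like the member score. Other genes named were chosen after their values were seen. A list gene and a shared stretch are not reported here. Precision is limited by 3 to 4 libraries a genotype.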

Additional observations from a re-analysis of the deposited data

Results flagged for a closer look

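In groups of 4 libraries, 4 values stood apart from the other 3 of their genotype by Dixon's ratio of gap to range, at the 95% limit for 4 values. All were in heterozygous libraries. Krt5 had 96.8 CPM in heterozygous replicate 4, with a ratio of 0.979. Krt15 had 99.96 CPM (0.939) and Col17a1 52.7 CPM (0.916) in the same library, which also had the highest skeletal muscle and nasal gland levels. Icam1 had 30.1 CPM (0.869) in heterozygous replicate 1. Chance would mark about 1 in 20 of the 16 groups examined, and the genes of heterozygous replicate 4 are not independent of each other. Whether these values belong to the animals or to the dissections was not tested.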

How the results depend on the processing

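Across 17 alternatives, the 8 members gave an unadjusted p under 0.05 in 2 of 136 values in homozygous against wild type, 3 of 136 in heterozygous against wild type and 0 of 136 in homozygous against heterozygous, and the lowest adjusted p was 0.705, 0.872 and 1. The sign differed from that reported in 10, 16 and 15 values. With library set as a term, Itgb4 was at 0.0308 in homozygous against wild type, and Krt5 at 0.00466, Krt14 at 0.242 and Krt15 at 0.165 in heterozygous against wild type.

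The count of genes with an unadjusted p under 0.05 in homozygous against wild type was 1132 with library set as a term and 317 to 721 with single libraries left out (lowest without homozygous replicate 2). In heterozygous against wild type it was 754 with library set and 229 to 614 with libraries left out (lowest on dropping wild type replicate 1, highest on dropping replicate 3), and in homozygous against heterozygous 227 with library set, 206 with no filter and 53 to 180 with libraries left out. The value of 53 came on dropping homozygous replicate 2, 180 on dropping heterozygous replicate 1 and 177 on dropping homozygous replicate 1. DESeq2 gave 8, 3 and 2 genes with an adjusted p under 0.05 in the 3 comparisons. The edgeR fits with a library left out gave 0, and 0 to 1, 0 to 2 and 0 members with an unadjusted p under 0.05. The cause of these shifts was not tested. Of the pairs of members, 6 passed within set 1, which holds fewer libraries, and 16 to 17 with heterozygous replicate 4 or homozygous replicate 2 left out, an alternative added after seeing the data. Krt5 and Krt14 had r = 0.79 within set 1. The median r of the 21 pairs without Icam1 was -0.18 within set 2, also added after seeing the data. Per kb of the longest coding transcript in place of all exons, the ratio of Itgb4 to Itga6 was 0.540 and that of Krt5 to Trp63 was 6.76.

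Same-numbered libraries of different genotypes had correlations from -0.585 to 0.415, 3 of 10 over 0.1, so the numbers do not pair the samples. With replicate number as a block, 286, 239 and 43 genes had an unadjusted p under 0.05, and Krt14 was at 0.0587 in heterozygous against wild type. Trp63 passed an unadjusted p of 0.05 only with wild type replicate 3 or heterozygous replicate 4 left out, as did Col17a1 with the latter. With each library left out in turn, the log2 fold changes in homozygous against wild type ran over both signs for Krt5 from -0.641 to 0.00986, Krt14 from -0.254 to 0.427, Krt15 from -0.843 to 0.0517, Itga6 from -0.284 to 0.0592, Itgb4 from -0.25 to 0.213 and Col17a1 from -0.521 to 0.0724. In heterozygous against wild type they did so for Krt5 from -0.697 to 0.0984, Krt14 from -0.409 to 0.221, Krt15 from -0.902 to 0.325 and Itgb4 from -0.426 to 0.111. In homozygous against heterozygous they did so for Krt5 from -0.353 to 0.389, Krt14 from -0.209 to 0.467, Krt15 from -0.696 to 0.472, Trp63 from -0.149 to 0.17, Icam1 from -0.102 to 0.376, Itga6 from -0.0295 to 0.307, Itgb4 from -0.0968 to 0.365 and Col17a1 from -0.124 to 0.525.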
